A study of Mus musculus with 44 samples.

Results

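The interleukin 1 (IL-1) family and its receptors were followed in mouse skin during bleomycin-induced fibrosis and recovery. The members are 10 listed genes of the 43411 genes in the expression table, found by symbol, and all 10 had enough reads to be tested. They are the ligands Il1a, Il1b, Il18 and Il33, the soluble antagonists Il1rn and Il18bp, and the receptor chains Il1r1, Il1r2, Il1rap and Il1rl1. The list was drawn by name, with earlier results of these data known.

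RNA was sequenced from the back skin of 44 female wild-type (WT) C57Bl/6 mice that were 8 weeks old at the start. Saline was given to 10 mice, bleomycin to 10 mice over 2 weeks and to 10 mice over 4 weeks, and recovery lasted 6 weeks in 6 mice and 10 weeks in 8 mice. Bleomycin was injected under the back skin each day, 100 µL at 1 U/mL, and the recovery mice were given it for 4 weeks before the injections stopped. Bleomycin, a drug that breaks DNA, is widely used to induce dermal fibrosis in mice as a model of systemic sclerosis. All groups share the strain, sex and genotype, and each sample is a separate mouse. No harvest time is given for the saline mice, so the age of the mice and the time of recovery cannot be told apart in comparisons with saline.

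IL-1 family ligands signal through pairs of receptor chains. IL-1α (Il1a) and IL-1β (Il1b) bind IL1R1 together with the shared chain IL1RAP, and this recruits MYD88 and IRAK kinases and activates NF-κB. IL1RN occupies IL1R1 without signalling, and IL1R2 is a decoy that binds ligand but lacks a signalling domain. IL-33 uses ST2 (Il1rl1) with the same IL1RAP chain, and IL-18 has its own receptor pair and is held in check by the secreted IL18BP. IL-1β and IL-18 are made as precursors that caspase-1 cleaves in inflammasomes, whereas IL-1α and IL-33 are stored in cells, epidermal keratinocytes among them, and act as alarm signals when cells are damaged. Transcript levels do not show cleavage, release or binding.

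The genes lie in a few clusters of the GRCm38 assembly. Il1a (chr2:129299610-129309972) and Il1b (chr2:129364570-129371139) are neighbours on the minus strand of chromosome 2. Il1rn (chr2:24336853-24351494) is elsewhere on that chromosome, on the plus strand. The receptor genes Il1r2 (chr1:40074079-40125231), Il1r1 (chr1:40225080-40317257) and Il1rl1 (chr1:40429570-40465415) follow one another on the plus strand of chromosome 1. Il1rap is at chr16:26581704-26730117, Il18 at chr9:50554827-50581840 and Il33 at chr19:29925114-29960718, all on the plus strand, and Il18bp is at chr7:102014885-102018690 on the minus strand. In the annotation 7 of the 10 genes overlap another gene. On the opposite strand these are Gm14023 for Il1a, the antisense RNA Il1bos for Il1b, the antisense RNAs Gm16894 for Il1r2 and Gm20319 for Il1rap, Bco2 with Tex12 for Il18, and Numa1 for Il18bp, and on the same strand Gm38070 for Il1r1 and Gm37347 for Il1r2. The strand setting of the read counting is not given in the sources used here, so reads of these partners may be included, while Il1rn, Il33 and Il1rl1 have no such overlap. Counts are per gene and do not separate isoforms such as the soluble and membrane forms of ST2.

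Promoter windows of 300 bases (250 before and 50 after the transcription start) from RefSeq on GRCm38.p6 were at hand for all 10 genes, 15 windows in all. A TATAAA box on the sense strand, its first base 25 to 35 bases before the start, was found in 3 of them, those of Il1a, Il1b and the second Il33 start. Of all 32851 promoter windows, 1.75% have the box in that range, which was set after the matches were seen. These 3 are printed because their genes carry the called changes among the ligands, and Il18bp because it rose most; capitals mark the box, and each window reads 5′ to 3′ on the strand of its gene.
Il1a, chr2:129309923-129310222, minus strand: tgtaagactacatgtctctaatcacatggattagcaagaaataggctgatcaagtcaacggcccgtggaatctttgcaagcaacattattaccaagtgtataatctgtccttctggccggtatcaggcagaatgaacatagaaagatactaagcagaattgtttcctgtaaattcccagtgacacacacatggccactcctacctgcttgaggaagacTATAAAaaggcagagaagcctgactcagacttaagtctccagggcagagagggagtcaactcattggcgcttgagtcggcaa
Il1b, chr2:129371090-129371389, minus strand: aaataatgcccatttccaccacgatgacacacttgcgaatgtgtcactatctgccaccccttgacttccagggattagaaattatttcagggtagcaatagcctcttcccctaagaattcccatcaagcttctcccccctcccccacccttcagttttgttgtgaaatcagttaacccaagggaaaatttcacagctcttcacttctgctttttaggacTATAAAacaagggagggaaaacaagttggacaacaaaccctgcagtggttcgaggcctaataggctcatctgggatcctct
Il33, chr19:29945540-29945839, plus strand: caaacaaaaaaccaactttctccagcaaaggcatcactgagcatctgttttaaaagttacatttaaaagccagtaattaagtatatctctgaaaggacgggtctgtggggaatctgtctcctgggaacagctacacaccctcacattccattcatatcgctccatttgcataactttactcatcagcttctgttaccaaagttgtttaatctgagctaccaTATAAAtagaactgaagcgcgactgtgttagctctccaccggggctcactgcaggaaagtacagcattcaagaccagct
Il18bp, chr7:102018183-102018482, minus strand: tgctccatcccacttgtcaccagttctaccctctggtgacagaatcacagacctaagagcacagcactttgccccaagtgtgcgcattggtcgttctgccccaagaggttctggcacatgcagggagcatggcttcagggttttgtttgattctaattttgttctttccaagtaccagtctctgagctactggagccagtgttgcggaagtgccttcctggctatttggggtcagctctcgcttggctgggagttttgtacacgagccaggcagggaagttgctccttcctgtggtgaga
In the Il1a window the box spans bases 32 to 27 before the start, in the Il1b window bases 31 to 26, and in the Il33 window bases 29 to 24. The Il18bp and Il1rl1 windows held none of the 5 motifs searched on both strands: TATAAA (13.6% of all windows), the STAT site TTCNNNGAA (8.3%), the interferon-response core GAAANNGAA (8.56%), the AP-1 site TGANTCA (7.81%) and the κB consensus (8.46%). The STAT site was found in the Il1r2 window, the interferon-response core in the Il1rap window, the κB consensus in the second Il1r1 window, and the AP-1 site in the Il1a window and in one Il1rn window. A match says only that the letters are there, and the other members gave no further match except TATAAA away from that range in the first Il33, the Il18 and an Il1rn window.

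The values are normalized counts, the reads on a gene divided by 1 scaling factor per mouse. Reads on genes ranged from 8509094 to 15285577 per mouse (median 11310008.5), and the group medians ran from 9523976 in saline to 12905996.5 after 10 weeks of recovery. Saline mouse 1 and mouse 2 of the 2-week bleomycin group stood apart: their median correlation with the rest of their group was 0.942 and 0.938, against 0.947 to 0.985 for the other mice. In saline mouse 1 the summed markers of the growing hair follicle came to 247859, above the other saline mice (highest 102201), while summed markers of fibroblasts, keratinocytes, endothelium and macrophages were below all of them. In the 2-week mouse, summed neutrophil markers came to 5176 (highest of the others 3483) and macrophage markers to 73883 (highest of the others 56818). Keratinocyte markers, which define skin, were high in every group (summed level 175249 to 316546). A gene was called changed at a fold above 1.5 (log2 0.585) and an adjusted p below 0.05, by limma over 17037 genes with all 5 groups in the fit.

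Bleomycin raised Il18bp and Il1b most among the members. Il33 was called higher in all 4 comparisons with saline, Il1a lower in both recovery groups, and Il1r2 lower at 2 weeks of bleomycin and 10 weeks of recovery. After 2 weeks, Il18bp, Il1b and Il33 rose and Il1r2 fell: 3 of 10 members were called higher, against 9.3% of all genes tested, and 1 was called lower, against 7.43%. After 4 weeks, 4 members were called higher (Il18bp, Il1b, Il1rl1 and Il33), against 10.5% of all genes, and 0 lower, against 7.37%, with 2 members lower at an unadjusted p below 0.05 and 0 called lower by edgeR or DESeq2. After 6 weeks of recovery Il33 was called higher (1 of 10 members, 3.33% of all genes) and Il1a lower (1 of 10, 1.71% of all genes). After 10 weeks Il33 was higher (1 of 10, 2.05% of all genes), and Il1a and Il1r2 were lower (2 of 10, 0.998% of all genes). The median log2 fold change of the 10 members was 0.24, 0.31, -0.10 and -0.23 in these 4 comparisons, while that of all genes stayed between -0.0023 and 0.0025. The 4 comparisons share the saline mice and are therefore not independent of each other.

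**Figure D1:**
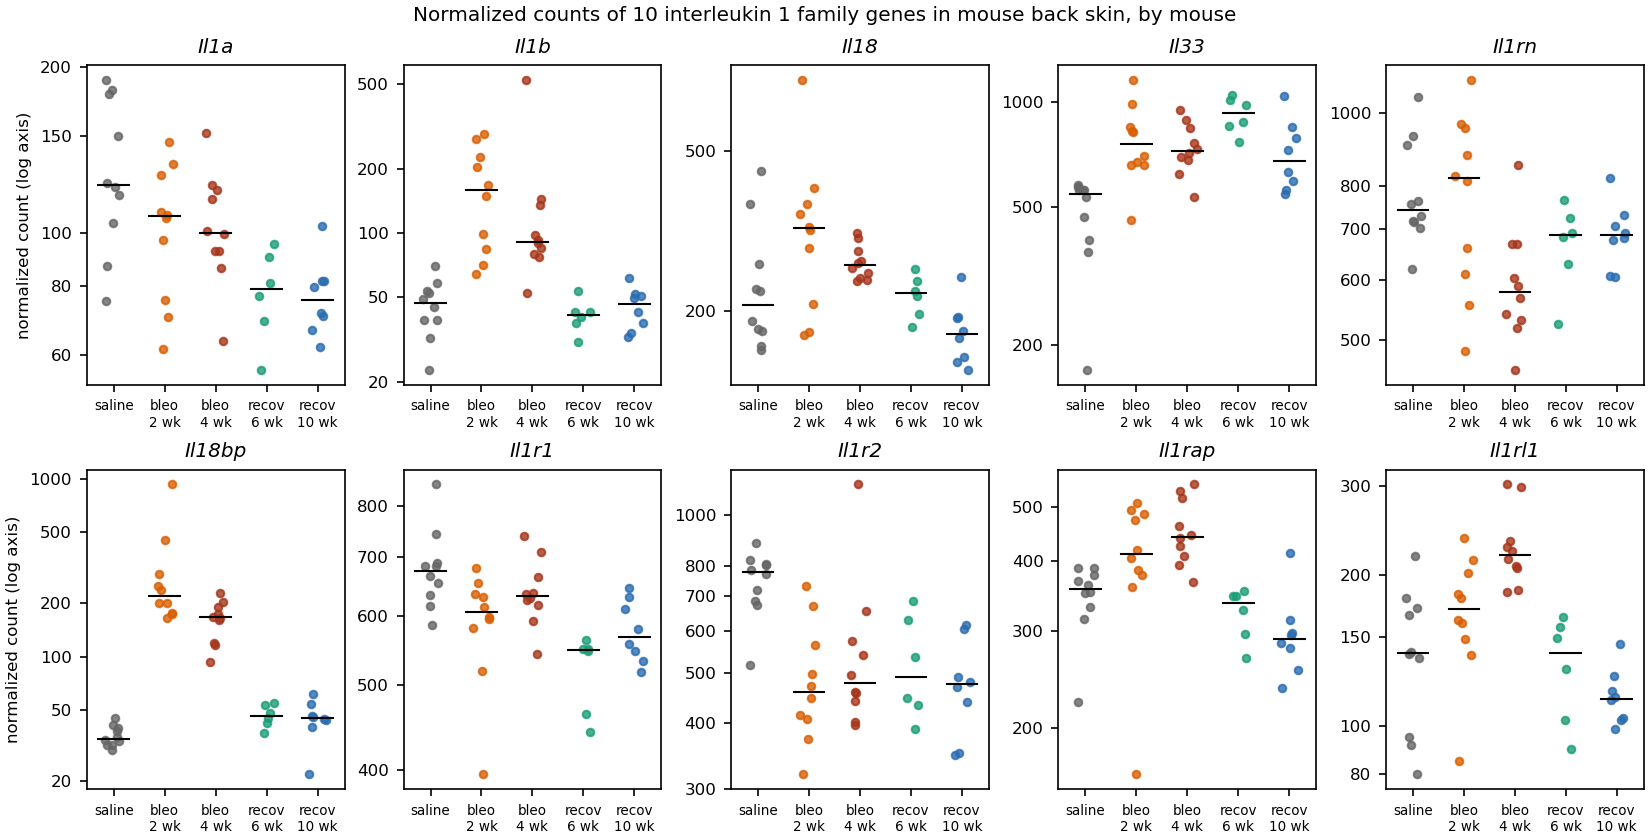
Normalized count (log axis) of each of the 10 genes in each of the 44 mice by group, with a bar at the group median; panels run from ligands through antagonists to receptors. The Il18bp values of both bleomycin groups lie above all saline values (highest 45.1), and saline mouse 1 is the low Il33 point at 169.

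Among the ligands, Il1b, the main secreted IL-1 of myeloid cells, was low in saline skin, from 22.7 to 69.7 normalized counts with a median of 46.8. It ranged from 64.3 to 291 (median 158) after 2 weeks of bleomycin and from 52.3 to 522 (median 90.6) after 4 weeks. In each bleomycin group 9 of 10 mice lay above every saline mouse, and the highest value at 4 weeks belonged to mouse 4, the next highest being 145. The log2 fold change was 1.67 (SE 0.27, a 3.19-fold rise, adjusted p = 3.75e-06) at 2 weeks and 1.28 (SE 0.27, 2.43-fold, adjusted p = 0.000223) at 4 weeks. In recovery Il1b spanned 30.8 to 53.5 at 6 weeks and 32.5 to 61.3 at 10 weeks, inside the saline range. Its log2 differences from saline were -0.12 (SE 0.32, adjusted p = 0.864) and -0.0018 (SE 0.29, adjusted p = 0.999).

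Markers of myeloid cells moved in the same groups as Il1b. Of 14 macrophage and monocyte markers, 11 rose at 2 weeks and 11 at 4 weeks with 1 lower each time (Cd163), and their summed level was 13130 to 31876 in saline, 29531 to 73883 at 2 weeks and 28625 to 55138 at 4 weeks. Of 9 neutrophil markers tested, 7 rose at 2 weeks and 5 at 4 weeks, with summed levels of 289 to 507 in saline, 594 to 5176 at 2 weeks and 571 to 1852 at 4 weeks. No marker of either list was at 0 in all mice of a group. In bulk skin, more cells of a type and more RNA per cell cannot be told apart, and the part of these cells in the Il1b levels was not tested.

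Il1a, the IL-1 that keratinocytes store, went the other way. Saline mice had 75.1 to 189 normalized counts (median 121.9), and the mice at 2 and 4 weeks of bleomycin had medians of 107.2 and 100.03 with log2 differences of -0.34 (SE 0.16, adjusted p = 0.0872) and -0.32 (SE 0.16, adjusted p = 0.116), which did not pass. After 6 weeks of recovery the values were 56.4 to 95.6 (median 79.0), and after 10 weeks they were 62.0 to 102.8 (median 75.7). Every recovery mouse lay below the saline mean of 132.7, though the ranges overlap. The fall was by 0.71 on the log2 scale (SE 0.18, adjusted p = 0.0096) at 6 weeks and by 0.73 (SE 0.17, adjusted p = 0.00579) at 10 weeks. Without recovery mouse 5 the 6-week call was lost (adjusted p = 0.0523). Of 14 keratinocyte markers, 0 were called in either direction in both recovery groups by limma, edgeR or DESeq2 (1 higher and 2 lower at 6 weeks and 0 higher and 3 lower at 10 weeks at an unadjusted p below 0.05), and their summed level was 175249 to 287277 in saline, 219689 to 287683 at 6 weeks and 181287 to 280376 at 10 weeks.

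Il33 was the member that stayed higher than saline in all 4 comparisons. Saline values ran from 169 to 577 with a median of 545.4, the low value being saline mouse 1 and the next lowest 369.8. Values were 458 to 1161 (median 760.1) at 2 weeks, 535 to 951 (median 725) at 4 weeks, 767 to 1049 (median 929) at 6 weeks of recovery and 543 to 1040.0 (median 679) at 10 weeks. The 6-week recovery mice did not overlap with saline, and 9, 9 and 6 mice of the other 3 groups lay above every saline mouse. The log2 fold changes were 0.74 (SE 0.16, adjusted p = 0.000231), 0.69 (SE 0.16, adjusted p = 0.000505), 1.02 (SE 0.18, adjusted p = 0.00025) and 0.63 (SE 0.17, adjusted p = 0.0199) in that order. Without saline mouse 1 the 2-week, 4-week and 10-week changes were under the fold threshold, at 0.584, 0.538 and 0.471, with adjusted p of 0.000303, 0.000789 and 0.0264. The 10-week call was also lost without recovery mouse 3 (adjusted p = 0.0535) and in a fit to the 2 groups alone (adjusted p = 0.0898).

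Endothelial cells and fibroblasts are among the known sources of IL-33 besides keratinocytes. Of 10 endothelial markers, 3, 4, 4 and 0 rose in the 4 comparisons by limma, edgeR and DESeq2 alike (6 higher at an unadjusted p below 0.05 at 10 weeks of recovery). Their summed level was 2056 to 4233 in saline and 4369 to 5499 at 6 weeks of recovery. It overlapped with saline in the other groups, at 2440 to 6415 (2 weeks), 3790 to 5750 (4 weeks) and 3700 to 5152 (10 weeks of recovery). Of 10 fibroblast markers, 5, 2, 1 and 1 fell in the 4 comparisons, and 1, 1, 4 and 0 were higher at an unadjusted p below 0.05 with 0 called by the 3 tools. The part of these cells in the Il33 levels was not tested.

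Il18, an inflammasome substrate that keratinocytes express at rest, passed no call. Its saline range was wide, 160 to 446 normalized counts with a median of 207, and it covered 174 to 753 (median 321) at 2 weeks, 237 to 313 (median 259) at 4 weeks, 182 to 254 (median 221) at 6 weeks of recovery and 142 to 243 (median 175) at 10 weeks. All groups overlap with saline. The 2-week log2 difference of 0.44 (SE 0.18, adjusted p = 0.0469) fell short of the fold threshold, and the others were 0.22 (adjusted p = 0.345), -0.06 (adjusted p = 0.901) and -0.36 (adjusted p = 0.287).

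Among the antagonists, Il18bp made the largest move of any member. Saline mice held 29.8 to 45.1 normalized counts (median 34.6), mice at 2 weeks of bleomycin 164 to 936 (median 220.1) and mice at 4 weeks 94.0 to 228 (median 166), so neither bleomycin group overlapped with saline. The log2 fold change was 2.84 (SE 0.20, 7.15-fold, adjusted p = 3.38e-15) at 2 weeks and 2.10 (SE 0.20, 4.28-fold, adjusted p = 2.77e-11) at 4 weeks. After 6 and 10 weeks of recovery the values were 37.0 to 54.9 and 21.8 to 62.0, overlapping with saline, with log2 differences of 0.36 (SE 0.24, adjusted p = 0.349) and 0.27 (SE 0.22, adjusted p = 0.568). Reads on Il18bp ran from 25 to 720 per mouse, so the low groups rest on few reads.

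Il1rn, the IL-1 receptor antagonist, was among the most abundant members and passed no call. The median was 743 normalized counts in saline, 818 and 579 in the 2-week and 4-week bleomycin groups, and 688 and 687.5 in the 6-week and 10-week recovery groups. At 4 weeks its range of 455 to 852 overlapped with the saline range of 621 to 1049, and 7 of 10 mice were below every saline mouse. The log2 difference there was -0.40 (SE 0.11, adjusted p = 0.00481), short of the fold threshold, and it was -0.04 (SE 0.11, adjusted p = 0.838) at 2 weeks, -0.23 (adjusted p = 0.28) at 6 weeks and -0.18 (adjusted p = 0.452) at 10 weeks of recovery.

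Among the receptors, the decoy Il1r2 fell. Saline mice had 516 to 886 normalized counts (median 778), with saline mouse 1 lowest. The values were 319 to 731 (median 459.7) at 2 weeks, 397 to 1147 (median 477) at 4 weeks, 391 to 684 (median 491) at 6 weeks of recovery and 348 to 615 (median 475) at 10 weeks. All 4 groups overlap with saline, and 7, 6, 3 and 6 of their mice lay below every saline mouse. The log2 change was -0.64 (SE 0.15, adjusted p = 0.000677) at 2 weeks and -0.67 (SE 0.16, adjusted p = 0.0073) at 10 weeks, both called. At 4 weeks it was -0.48 (SE 0.15, adjusted p = 0.00915) and at 6 weeks of recovery -0.54 (SE 0.17, adjusted p = 0.0405), under the fold threshold.

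These Il1r2 values sit near the threshold and 1 mouse moves them across it. Without mouse 8 of the 2-week group the change was -0.57 and not called, and without mouse 3 of the 4-week group, which holds the value of 1147, it was -0.61 and called. At 6 weeks of recovery it was called without saline mouse 1 (-0.59), recovery mouse 2 (-0.62) or recovery mouse 6 (-0.60).

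Some dendritic cell markers were called lower in each of the 4 comparisons with saline, and others were called higher during bleomycin. Hair follicle markers were lower in both bleomycin groups and were not called by limma in recovery. Of 9 dendritic and Langerhans cell markers tested, 3, 3, 2 and 3 were called lower in the 4 comparisons with saline, Xcr1 each time, and 1, 2, 0 and 0 higher (Ccr7, with Itgax at 4 weeks), the list medians being -0.29, -0.49, -0.46 and -0.47. In the recovery groups none of the 9 was higher at an unadjusted p below 0.05 or by edgeR or DESeq2. Their summed level was 6075 to 14416 in saline and 6116 to 21800 over the other groups, and so overlapped. All 13 markers of the growing (anagen) hair follicle that were tested fell in both bleomycin groups, with medians of -8.02 and -6.80, and their summed level was 2335 to 247859 in saline, 195 to 2290 at 2 weeks and 225 to 5750 at 4 weeks. In recovery 0 of 13 were called by limma, with medians of -2.10 and 0.21. Their summed level there was 352 to 116379 at 6 weeks and 1646 to 190175 at 10 weeks. At 6 weeks 3 were lower at an unadjusted p below 0.05, edgeR called 1 and DESeq2 2, and at 10 weeks 0 were past any of these in either direction. The part of either in the Il1r2 level was not tested.

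Il1r1, the signalling receptor of IL-1, was steadier. The median was 674 in saline, 606 and 631 in the 2-week and 4-week bleomycin groups and 548 in the 6-week recovery group, and the 10-week mice ranged from 517 to 645. At 6 weeks its range of 442 to 563 did not overlap with the saline range of 585 to 848, yet the log2 difference of -0.39 (SE 0.08, adjusted p = 0.002) was short of the fold threshold. The other log2 differences were -0.21 (SE 0.07, adjusted p = 0.0185), -0.09 (SE 0.07, adjusted p = 0.359) and -0.23 (SE 0.08, adjusted p = 0.0603) at 2 weeks, 4 weeks and 10 weeks of recovery. Il1rap, the shared signalling chain, had a median of 357.1 in saline and 443 at 4 weeks, where 9 of 10 mice lay above every saline mouse and the log2 difference was 0.40 (SE 0.13, adjusted p = 0.0119), again under the fold threshold. Its differences in the other groups were 0.20 (adjusted p = 0.243), -0.09 (adjusted p = 0.759) and -0.22 (adjusted p = 0.398).

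Il1rl1 encodes ST2, the IL-33 receptor of mast cells, group 2 innate lymphoid cells (ILC2) and regulatory T cells (Treg). It ranged from 79.9 to 218 (median 139.3) in saline, 84.8 to 236 (median 170.9) at 2 weeks, 185 to 303 (median 219) at 4 weeks, 89.8 to 164 (median 139.3) at 6 weeks of recovery and 98.4 to 145 (median 113) at 10 weeks. The 4-week mice all lay above the saline mean, 5 of them above every saline mouse. The log2 change was 0.73 (SE 0.15, 1.66-fold, adjusted p = 0.000167) at 4 weeks, while 0.29 (SE 0.15, adjusted p = 0.144), -0.07 (SE 0.18, adjusted p = 0.859) and -0.24 (SE 0.16, adjusted p = 0.461) at 2 weeks and in recovery did not pass.

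Markers of ST2-bearing cells moved as follows. Of 12 mast cell markers, 10, 11, 6 and 2 rose in the 4 comparisons, none of the 12 being lower at an unadjusted p below 0.05, and their summed level was 2395 to 4239 in saline, 3770 to 7505 at 2 weeks, 5991 to 9320 at 4 weeks, 3811 to 5893 at 6 weeks of recovery and 2965 to 5220 at 10 weeks. At 4 weeks no mouse overlapped with saline. Of 8 genes tested on a list of type 2 cytokines and ILC2 or Treg markers, Il2ra, Foxp3 and Il7r were higher at both 2 and 4 weeks, with log2 fold changes at 4 weeks of 1.496, 1.59 and 0.98, while the list median there was -0.17. Gata3 was lower at 4 weeks (-0.49, adjusted p = 5.22e-06) but under the fold threshold, and the values of Il4, Il13, Areg and Rora lay between -0.28 and -0.08. Without saline mouse 1 and 2-week mouse 2, Foxp3 was not called at 2 weeks. The part of these cells in the Il1rl1 level was not tested.

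**Figure D2:**
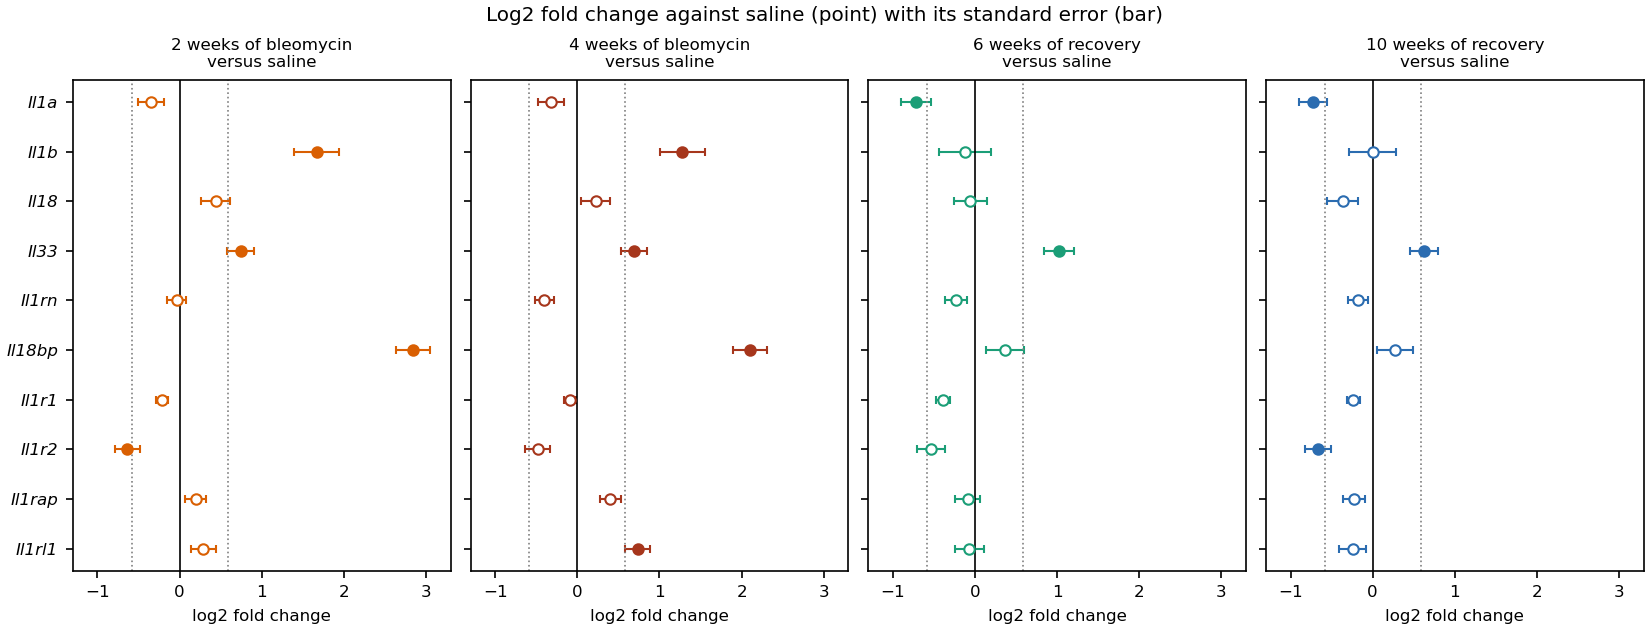
Log2 fold change against saline for each gene, with its standard error, in the 4 comparisons; filled points passed the call, open points did not, and dotted lines mark a fold of 1.5. Il18bp at 2.84 and 2.10 and Il1b at 1.67 and 1.28 stand off in bleomycin, and Il33 at 1.02 after 6 weeks of recovery.

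The direct comparisons between treated groups followed longer injection and the time after it stopped. All mice started at the same age, so these groups also differed in age at harvest. Age and time of treatment or recovery cannot be told apart in these comparisons either. From 2 to 4 weeks of bleomycin 1 member was called lower, against 0.863% of all genes, and 0 were called higher, against 1.49%, with 1 higher at an unadjusted p below 0.05 and 0 by edgeR or DESeq2. The called gene was Il18bp, with a log2 change of -0.74 (SE 0.20, adjusted p = 0.0245), and 4 of the 10 mice at 4 weeks lay below all of those at 2 weeks. That call was lost without 2-week mouse 2 (-0.54), 2-week mouse 4 (adjusted p = 0.0568) or 4-week mouse 2 (adjusted p = 0.0507), and in a fit to the 2 groups alone. Il1rn (-0.36, adjusted p = 0.0489) was under the fold threshold, and Il1b (-0.39, adjusted p = 0.437) and Il1rl1 (0.45, adjusted p = 0.0765) did not pass.

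Between the 4-week bleomycin mice and the 6-week recovery mice 3 members fell, against 7.14% of all genes, and 0 rose, against 4.8%, with 0 higher at an unadjusted p below 0.05 and 0 by edgeR or DESeq2. Il18bp fell by 1.73 on the log2 scale (SE 0.24, adjusted p = 2.74e-07), Il1b fell by 1.40 (SE 0.32, adjusted p = 0.000865) and Il1rl1 fell by 0.80 (SE 0.18, adjusted p = 0.000673). The Il18bp, Il1rl1 and Il1rap values of these groups did not overlap, and 5 of 6 recovery mice were below every 4-week mouse in Il1b. The share of all genes without overlap was not taken. Il1rap (-0.49, adjusted p = 0.0117) and Il1r1 (-0.30, adjusted p = 0.00614) were lower but under the fold threshold, and Il33 (0.32, adjusted p = 0.2) did not pass. Between 6 and 10 weeks of recovery limma called 0 members higher, against 0.0176% of all genes, and 0 lower, against 0.0704%. At an unadjusted p below 0.05 there was 1 member lower (Il33, -0.39, adjusted p = 0.408), and edgeR and DESeq2 called 0.

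Ratios between a ligand or receptor and its antagonist, decoy or partner were taken within each mouse as differences of log2(normalized count + 1), which removes the scaling factor. The comparisons with saline were 16 in all and p-values are adjusted over them, from two-sided permutation tests that were exact where a group had fewer than 10 mice. The Il1b to Il1rn ratio rose by 1.71 (SE 0.21) at 2 weeks and 1.68 (SE 0.29) at 4 weeks, with adjusted p = 0.00024 both times, and all 10 mice of each group lay above every saline mouse. It differed by 0.11 (adjusted p = 0.586) and 0.18 (adjusted p = 0.378) in recovery. The Il18 to Il18bp ratio fell by 2.396 (SE 0.26) at 2 weeks and fell by 1.88 (SE 0.23) at 4 weeks, with adjusted p = 0.00024 both times and all 10 mice of each group being below every saline mouse. In recovery it was -0.42 (adjusted p = 0.15) and -0.63 (adjusted p = 0.0693) from saline.

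The receptor ratios moved by smaller amounts. The Il1r1 to Il1r2 ratio was higher by 0.39 (SE 0.15, adjusted p = 0.0368) at 4 weeks and by 0.43 (SE 0.14, adjusted p = 0.0187) at 10 weeks of recovery, with 6 of 10 and 5 of 8 mice above every saline mouse. At 2 weeks the difference of 0.42 (SE 0.18) had an adjusted p of 0.0506, and at 6 weeks of recovery it was 0.15 (adjusted p = 0.378). The Il33 to Il1rl1 ratio rose in recovery, by 1.09 (SE 0.24, adjusted p = 0.0048) at 6 weeks and 0.87 (SE 0.21, adjusted p = 0.00536) at 10 weeks, in 4 mice of each group above every saline mouse. During bleomycin it was 0.45 (SE 0.28, adjusted p = 0.16) and -0.04 (SE 0.20, adjusted p = 0.849).

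**Figure D3:**
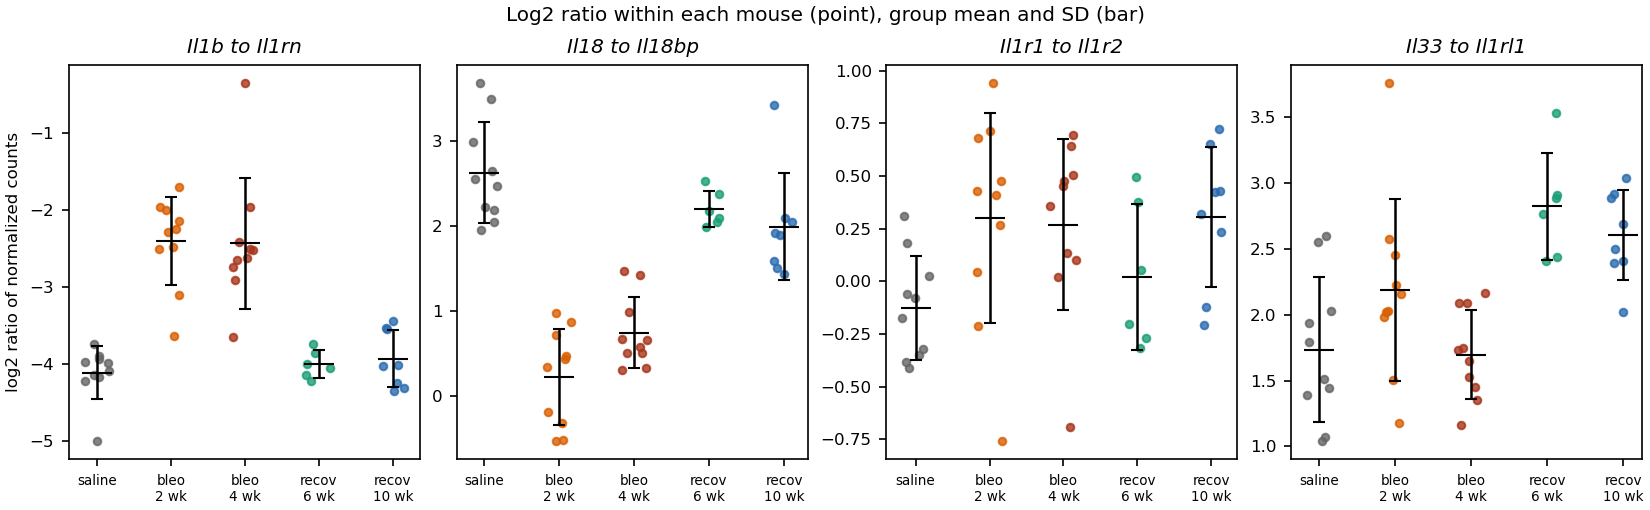
Log2 ratio of normalized counts within each mouse by group for 4 gene pairs, with the group mean and SD. The Il1b to Il1rn and Il18 to Il18bp ratios of both bleomycin groups lie apart from saline, and the Il33 to Il1rl1 means are 2.82 and 2.61 in recovery against 1.74 in saline.

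Levels of different genes were compared per kilobase of exon, the length being that of all annotated exons of a gene joined. Which transcripts skin expresses was not tested, and the SDs between mice do not cover that uncertainty. In saline skin Il1r2 was highest, at 391 ± 54.4 normalized counts per kb (SD, n = 10), followed by Il18 (232 ± 93.0), Il33 (165 ± 45.3), Il1rn (143 ± 23.5), Il1r1 (107 ± 11.5), Il1a (67.2 ± 20.4), Il1rap (30.5 ± 4.35), Il1b (24.1 ± 7.08), Il1rl1 (20.5 ± 6.37) and Il18bp (11.9 ± 1.60). Il18 and Il33, Il33 and Il1rn, Il1rap and Il1b, and Il1b and Il1rl1 lay within 1 SD of each other in that order. At 2 weeks of bleomycin Il18bp reached 102 ± 78.2 per kb, in place 5 of 10, with Il1r1 at 92.8 ± 12.77 and Il1b at 85.4 ± 43.97, all within 1 SD of each other. That place rests on mouse 2, without which Il18bp came to 79.2 ± 30.1 (SD, n = 9), in place 7 of 10 after Il1r1 (96.2 ± 7.29) and Il1b (83.1 ± 46.0). At 6 weeks of recovery Il33 led at 320 ± 37.6, followed by Il1r2 at 272 ± 61.4, within 1 SD of each other.

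The receptor cluster on chromosome 1 held genes that moved and genes that did not. In order along the plus strand it contains Il1r2, Il1r1, Il1rl2 (chr1:40324610-40367562), Il1rl1, Il18r1 (chr1:40465552-40500854) and Il18rap (chr1:40515362-40551705), and the 3 further genes are given here after their values were seen. Il18rap, the accessory chain of the IL-18 receptor, rose at 2 weeks (1.61, SE 0.19, adjusted p = 3.26e-09) and at 4 weeks (1.39, SE 0.19, adjusted p = 1.06e-07), from a mean of 46.4 in saline to 148 and 121. Its neighbour Il18r1 did not pass the fold threshold at either time (0.53, adjusted p = 0.00457, and 0.33, adjusted p = 0.0853), nor did Il1rl2, the IL-36 receptor (-0.05, adjusted p = 0.643, and -0.19, adjusted p = 0.0449). At 4 weeks, then, Il1rl1 and Il18rap were the genes of the cluster that were called.

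Of the other ligands and receptors of the family, Il18rap alone was called during bleomycin by limma. Of 9 such genes tested, 1 rose at 2 weeks and 1 at 4 weeks (Il18rap each time) and 0 fell, with list medians of 0.16 and 0.12 against 0.0025 and -0.00065 for all genes. At 2 weeks 0 were lower at an unadjusted p below 0.05 or by edgeR or DESeq2. At 4 weeks 2 were lower at an unadjusted p below 0.05, and edgeR and DESeq2 each called 1 of them, Il1f6 (-0.86, SE 0.36, adjusted p = 0.0543 by limma). Without saline mouse 1 and 2-week mouse 2, limma called Il1f6 lower at 2 and 4 weeks and at 6 weeks of recovery too. After 10 weeks of recovery 3 of 9 were called lower and 0 higher (0 higher at an unadjusted p below 0.05, and 0 by edgeR or DESeq2). These are the IL-36 ligand genes Il1f6 (-1.55, SE 0.38, adjusted p = 0.00946), Il1f8 (-1.05, SE 0.23, adjusted p = 0.00387) and Il1f9 (-0.79, SE 0.21, adjusted p = 0.0174), named because the count is small. Their saline values were wide, with means of 82.1 ± 60.8, 176 ± 91.3 and 370.1 ± 158 (SD, n = 10) against 22.5 ± 7.95, 78.5 ± 21.6 and 200.8 ± 51.5 (SD, n = 8), and all 3 ranges overlap. At 6 weeks 0 were called, with 1 higher and 4 lower at an unadjusted p below 0.05, and edgeR called 0 while DESeq2 called 1 lower.

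Many genes of the inflammasomes, the complexes that activate caspase-1, were called higher during bleomycin. Of 16 tested, 10 rose and 0 fell at 2 weeks (2 lower at an unadjusted p below 0.05, 0 by edgeR or DESeq2), and 8 rose and 2 fell at 4 weeks (Gsdma and Nlrp10 fell). The list medians were 0.93 and 0.61 against 0.0025 and -0.00065 for all genes. Casp1 and Pycard passed the call at neither time. At an unadjusted p below 0.05, 14 of the 16 were higher at 2 weeks and 12 at 4 weeks. The summed level was 4778 to 5949 (median 5210) in saline and 4939 to 8435 (median 5817) at 2 weeks. At 4 weeks it was 4551 to 5827 (median 4932), so both groups overlapped with saline. The sensor Nlrp3 rose by 1.87 (SE 0.25, adjusted p = 4.27e-08) at 2 weeks and 1.52 (SE 0.25, adjusted p = 3e-06) at 4 weeks, from a mean of 21.1 in saline to 76.2 and 60.8. Nlrp1a (1.72) and Naip2 (1.37) followed at 2 weeks, and the DNA sensor Aim2 (1.30) and Nlrc4 (1.17) at 4 weeks. The saline means of Nlrp1a, Aim2 and Nlrc4 were low, at 7.51, 9.30 and 14.7 normalized counts. In recovery 0 were called, with 3 higher and 3 lower at 6 weeks and 1 higher and 2 lower at 10 weeks at an unadjusted p below 0.05, and 0 by edgeR or DESeq2.

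Transcripts that IL-1 is known to induce rose with far larger folds. Of 18 tested, 14 rose at 2 weeks and 13 at 4 weeks, none of the 18 being lower at an unadjusted p below 0.05 at either time, and the list medians were 2.24 and 2.38. The 2 mice that stood apart did so here as well. The summed level of these genes was 29244 in 2-week mouse 2 (highest of the others 18304) and 982 in saline mouse 1 (lowest of the others 1185), and without both mice 13 rose at each time (Ptgs2 no longer at 2 weeks), with medians of 2.15 and 2.30. The acute-phase gene Saa3 rose by 8.49 (SE 0.58, adjusted p = 5.19e-16), Lcn2, which encodes an iron-scavenging protein, by 4.94 and the chemokine gene Ccl3 by 3.36 at 2 weeks. Saa3 varied widely among the 2-week mice, from 259 to 17304 normalized counts (median 1109), mouse 2 being highest, and its change was 8.11 (SE 0.56, adjusted p = 1.89e-15) without those 2 mice. At 4 weeks Saa3 (6.45), the neutrophil chemokine gene Cxcl2 (3.95) and Lcn2 (3.64) led. The saline means of Saa3, Ccl3 and Cxcl2 were low, at 3.395, 3.11 and 2.94 normalized counts, and that of Lcn2 was 23.9. The folds of Saa3, Ccl3 and Cxcl2 therefore rest on few reads in saline. After 6 weeks of recovery 4 of 18 were called higher (Ccl2, Cxcl1, Mmp3 and Nos2) with a median of 0.56, against 3 by edgeR and 3 by DESeq2, and Cxcl1 was not called without the 2 mice that stood apart. Nos2 had not been called during bleomycin (0.02, adjusted p = 0.943, and -0.16, adjusted p = 0.59) and was also higher at 6 weeks of recovery than at 4 weeks of bleomycin (1.02, SE 0.24, adjusted p = 0.00118). After 10 weeks 0 were called, with 2 higher and 4 lower at an unadjusted p below 0.05, 0 by edgeR and 1 lower by DESeq2. These genes also respond to other cytokines, and which signal moved them was not tested.

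Few genes of the signalling chain below the receptors were called. Of 20 genes tested, Myd88 (0.79, SE 0.13, adjusted p = 1.98e-06) and Irak4 (0.60, SE 0.10, adjusted p = 9.51e-06), the adaptor and kinase next to the receptor, rose at 2 weeks, Irak4 not being called without saline mouse 1 and 2-week mouse 2. None was called in the other 3 comparisons with saline by limma, edgeR or DESeq2, where 6, 0 and 0 were higher and 0, 5 and 1 lower at an unadjusted p below 0.05. The list medians lay between -0.05 and 0.10.

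**Figure D4:**
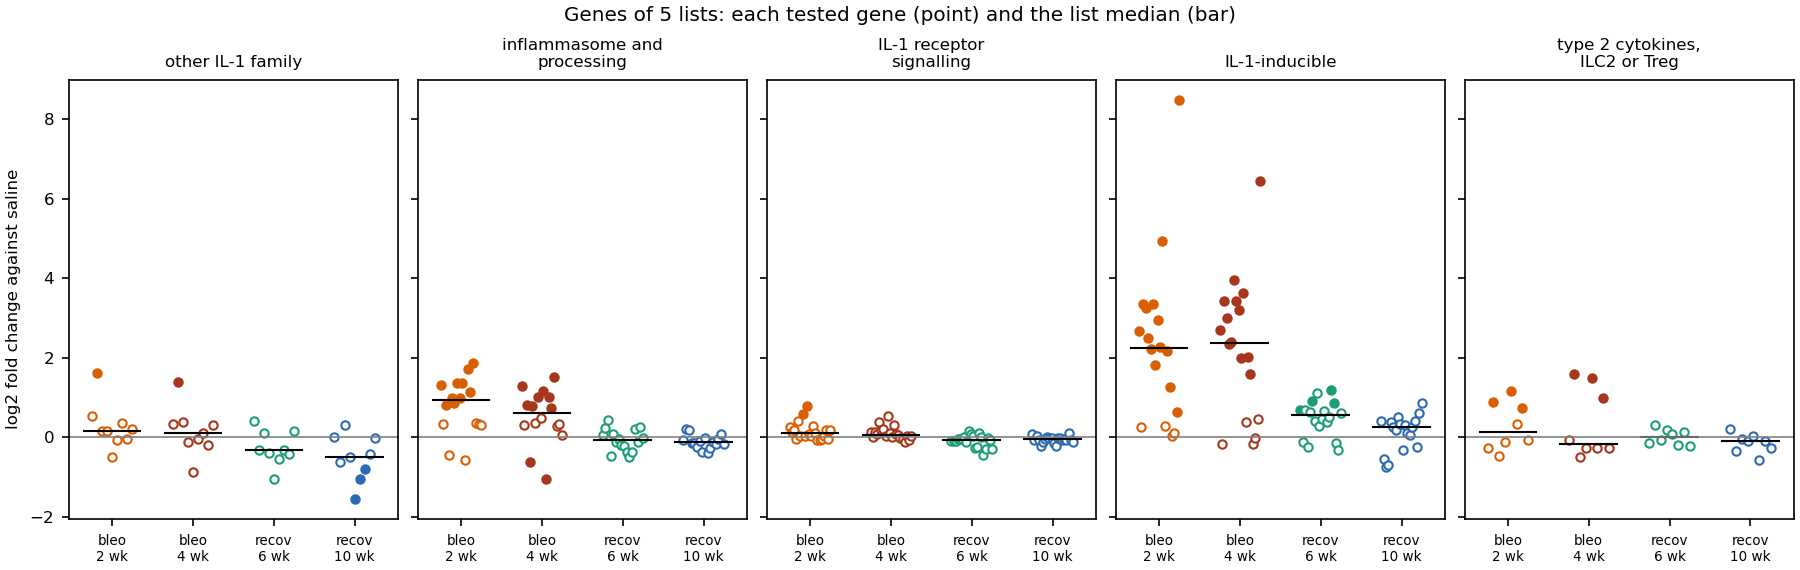
Log2 fold change against saline of every tested gene of 5 lists in the 4 comparisons, filled where called, with a bar at the list median. IL-1-inducible genes have medians of 2.24 and 2.38 in bleomycin and 0.56 and 0.27 in recovery, and the medians of IL-1 receptor signalling genes lie between -0.05 and 0.10.

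Differences between mice of the same group were used to find the genes most like each member, by Pearson's r of log2 values over 44 mice after group means were taken off. The closest genes to Il18 were Calm4 (0.94), Them5 (0.89) and Lce1f (0.89), and those to Il1a were Hrnr (0.85), Sdcbp2 (0.80) and Il1f8 (0.80). Il1rn was closest to Mal2 (0.85), Ggct (0.84) and Aqp9 (0.82), and Il1r2 to Adh1 (0.79), Il22ra2 (0.79) and Wdr45 (0.78). Il1b was closest to Clec4a2 (0.72), Sprr2d (0.71) and Cd53 (0.69), and Il1rl1 to Cytip (0.73), Pid1 (0.71) and Cd86 (0.70). Over 42 mice, without saline mouse 1 and 2-week mouse 2, these values lay between 0.64 and 0.92.

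The likeness of the other 4 members rested more on those 2 mice. For Il1rap, r with Zfp644, Vps35 and Pkn2 was 0.90, 0.89 and 0.89 over 44 mice and 0.73, 0.77 and 0.74 over 42. For Il33, r with Kctd12, Jak1 and Ust was 0.84 each and became 0.69, 0.63 and 0.66. For Il18bp, r with Pstpip1, Cyba and Bst2 went from 0.84, 0.83 and 0.83 to 0.72, 0.70 and 0.69, and for Il1r1, r with Arhgap21, Rnf19a and Tcf12 went from 0.78, 0.78 and 0.77 to 0.61, 0.65 and 0.56. Among the members themselves the highest values over 44 mice were between Il1rn and Il18 (0.71, and 0.73 over 42), Il1rap and Il33 (0.70 and 0.56) and Il1a and Il1rn (0.65 and 0.76). The lowest over 44 mice was between Il1rap and Il18bp (-0.66, and -0.407 over 42). Over 42 mice the order differed, with Il1a and Il1rn highest and Il1r1 and Il18 lowest (-0.410).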

How the data were processed

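Total RNA from back skin (500 ng per library) was made into stranded mRNA libraries and sequenced as 50-base paired-end reads. Per the labels and the study's methods, the authors aligned reads to mm10 with STAR 2.4.0, counted them per gene and divided each count by a size factor per mouse with DESeq2 1.12.3; the deposited signal is this table of normalized counts. The counting tool and annotation are not given in the sources used here. Dividing by the value of 1 read gave whole reads for 100% of values above 0 in every mouse (tolerance 0.01 reads). Of 43411 genes, 42929 (98.9%) matched a symbol and 14600 had no read. Positions are of GENCODE M21 on GRCm38 and promoters of RefSeq.

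Differences were tested by limma 3.58.1 (R 4.3.3) with its trend option. The values entered as log2(normalized count + 1), the 17037 genes whose mean exceeded 3 were kept, and p-values were Benjamini-Hochberg adjusted; log2 fold changes are on that scale and are slightly understated for low genes. A gene was called at a fold above 1.5 and an adjusted p below 0.05. Recovered reads were also tested with edgeR 4.0.16 and DESeq2 1.42.0. On simulated counts with 200 changed genes for 2 weeks of bleomycin against saline, each tool was tested and found most of them. The changed genes were not low and their changes lay well above the fold threshold. The simulation therefore does not show how well changes near the threshold are found. Ratios were compared by permutation tests (scipy 1.17.1, 100000 resamples where both groups had 10 mice). Python 3.11.15, numpy 2.4.6, pandas 2.3.3 and matplotlib 3.10.9 were used.

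All 10 members are named, with the 3 largest called changes of each pathway list at 2 and 4 weeks and the 3 genes most like each member; other genes were named after their values were seen. The members and lists were chosen with earlier results of these data known. Alternatives were a pseudocount of 0.1, no filter, a filter asking 6 mice to hold at least 10 normalized counts, quantile normalization, trimmed-mean rescaling, a fit to the compared groups alone, a block for the replicate number, the count tools, no fold change threshold, 42 mice, and reads thinned to the smallest total. Leaving out each mouse, and list counts and 2-week levels without the mice that stood apart, were added after the data were seen. Total reads limit the precision of low genes, and p-values set group differences against the spread between mice.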

Additional observations from a re-analysis of the deposited data

Results flagged for a closer look

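A mouse was flagged where its gap to the nearest mouse of its group exceeded the 95% limit of Dixon's test. Of 50 groups of values tested 9 were flagged, and chance flags about 1 in 20. Saline mouse 1 was low in Il33 (169), Il1r2 (516) and Il1rap (223 normalized counts), and mouse 2 of the 2-week bleomycin group was low in Il1r1 (395) and Il1rap (165.2). Both mice also had the lowest median correlation with their group over the genes tested (0.942 and 0.938), though the next lowest mouse was near, at 0.947. In the 4-week group mouse 4 was high in Il1b (522) and mouse 3 was high in Il1r2 (1147). Mouse 7 of the 2-week group was low in Il1rl1 (84.8), and mouse 3 of the 10-week recovery group was low in Il18bp (21.8). The rise of Il18bp differed between the bleomycin groups, by -0.74 on the log2 scale from 2 to 4 weeks (limma, adjusted p = 0.0245), and the call was lost without 2-week mouse 2. The causes of these values were not tested.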

How the results depend on the processing

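Of 440 member fold changes in the 4 comparisons with saline under the other settings, 434 kept their direction and their side of the thresholds. So did 60 of 64 ratio differences. Comparisons between treated groups are not in the 440. Without a fold change threshold the genes called rose to 6063 and 6242 at 2 and 4 weeks, 1547 and 994 at 6 and 10 weeks of recovery, 956 for 4 against 2 weeks and 4260 for recovery against 4 weeks, and the members called to 7 at 4 weeks, 4 at 6 weeks of recovery, 2 for 4 against 2 weeks and 5 for recovery against 4 weeks. Only the groups compared gave 326 genes at 10 weeks of recovery, 56 for 10 against 6 weeks, and 0 members for 4 against 2 weeks. The 42 mice gave 58 genes for 10 against 6 weeks and 0 members for 4 against 2 weeks, and DESeq2 gave 63 genes for 10 against 6 weeks, where the fit of all mice gave 15. The Il1r1 to Il1r2 difference at 2 weeks passed with quantile normalization (0.43, adjusted p = 0.0476), 42 mice (0.58, adjusted p = 0.00513) and thinned reads (0.44, adjusted p = 0.0484). Differences near 0 changed sign: Il1b at 10 weeks of recovery with quantile normalization (0.0015) and thinned reads (0.022), and the Il33 to Il1rl1 ratio at 4 weeks with thinned reads (0.016). The 42 mice ended the Il33 calls at 4 weeks (0.54) and 10 weeks (0.47) and added Il1r2 at 6 weeks (-0.59). With each mouse left out, the members called ranged from 1 to 3 at 6 weeks of recovery and 0 to 1 for 4 against 2 weeks. The cause of these shifts was not tested. The replicate numbers are shared between groups, but same-numbered mice showed no common likeness. Their median r ran from -0.119 to 0.065 over the pairs of groups, against -0.036 to 0.029 for other numbers. Of 78 same-numbered pairs 18 had r above 0.1. In 12 of 78 tests over pairs of groups, in which a mouse counts more than once, it was closest to its own number. The share by chance was not taken. With the number as a block, 1129 and 643 genes were called at 6 and 10 weeks of recovery against 859 and 519, and no member call changed. Low genes such as Il18bp, with 25 reads in its lowest mouse, are measured least precisely.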
